A study of Mus musculus with 6 samples.

Results

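Chemokines are small secreted proteins that draw leukocytes along a concentration gradient, and their receptors are G protein-coupled receptors, most of them on leukocytes. The ligands are named for the spacing of their first cysteines (CC, CXC, C and CX3C), and many of them lie side by side in the genome in clusters. In pancreatic islets, beta cells, endothelium, stellate cells and resident macrophages can all make chemokines, many of them under the control of the inflammatory transcription factor NF-kappaB.

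The family was measured here in isolated islets of Langerhans from 6 mice, 1 Affymetrix mouse array per mouse. Its members are all probe sets (groups of array probes read as 1 value) whose platform annotation gives a single gene symbol of the series Ccl, Cxcl, Xcl, Ccr or Cxcr with a number, or Cx3cl1. This gave 71 of the 45037 probe sets tested and 47 of 18193 named genes: 18 CC ligands, 13 CXC ligands, Xcl1, Cx3cl1 and 14 receptors. One receptor gene is left out by the rule, and 4 probe sets with several symbols (for Ccl19, Ccl21 and Ccl27 copies) do not meet it. The rule itself uses no measured value, although it was written with earlier results of these data known.

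Wild-type mice (3 arrays, replicates 1 to 3) were compared with hIAPP_Tg mice (3 arrays, replicates 4 to 6), which carry a transgene for human islet amyloid polypeptide (amylin) under the Ins2 insulin promoter, active in beta cells. Human amylin, unlike mouse amylin, readily forms amyloid. Mice of both genotypes were labelled FVB/N-Tg(Ins2-IAPP)RFHSoel/J, an age of 12 weeks and standard chow, and the design text gives an age range that ends there. The labels used here give no sex, litter or transgene copy number. All values are log2 expression values normalized with RMA, deposited in steps of 0.1 with a median of 5.7 on every array. Differences are hIAPP_Tg minus wild type, and a call is an adjusted p under 0.05 in limma over all probe sets.

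The islets carried their own markers on every array, with a mean over the beta-cell markers of 12.6 to 12.9. They also held other cells. Averaged over 16 macrophage markers, the level was 6.66 to 6.84 in wild-type mice against 7.68 to 7.82 in hIAPP_Tg mice, without overlap. Of the 16, 12 were higher in hIAPP_Tg islets at an unadjusted p under 0.05, against 5.02% of all genes by brightest probe set. Among them, 2 (Mpeg1 and Tyrobp) passed the limma threshold. The marker lists were chosen with earlier results of these data known. The mean over 6 acinar markers ran from 11.6 to 13.4 in wild-type mice against 10.2 to 12.8 in hIAPP_Tg mice. In whole islets, more cells of a type and more RNA per cell cannot be told apart.

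No chemokine or receptor was called between the genotypes, and only ligands stood above the middle of the array. Of the 71 probe sets, 0 passed the limma threshold (background over all probe sets 0.0289%), and 7 had an unadjusted p under 0.05 (9.86%, against 7.33% of all probe sets). The smallest adjusted p in the family was 0.15, for Ccl6. Of the 47 genes, 9 were above the array median on all 6 arrays, and all 9 encode ligands.

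The array median is no detection limit, and probes differ in how strongly they bind, so the values of different genes give no order of transcript amount. Taking the brightest probe set of each gene, 19.1% of the chemokine genes were above the median on all 6 arrays, against 61.2% of all 18193 genes. Another 28 were below it on all 6 arrays, or 59.6% against 32%, and 10 were on both sides or level with it. By role, 9 of 33 ligand genes and 0 of 14 receptor genes were above. The 9 are Cxcl1, Cxcl12, Cxcl16, Cxcl17, Ccl4, Ccl20, Ccl27a, Ccl28 and Cx3cl1. Cxcl1 was above only on probe sets of types (_s_at and _x_at) whose probes can match several transcripts. Its remaining probe set was below the median on all 6 arrays.

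**Figure D1:**
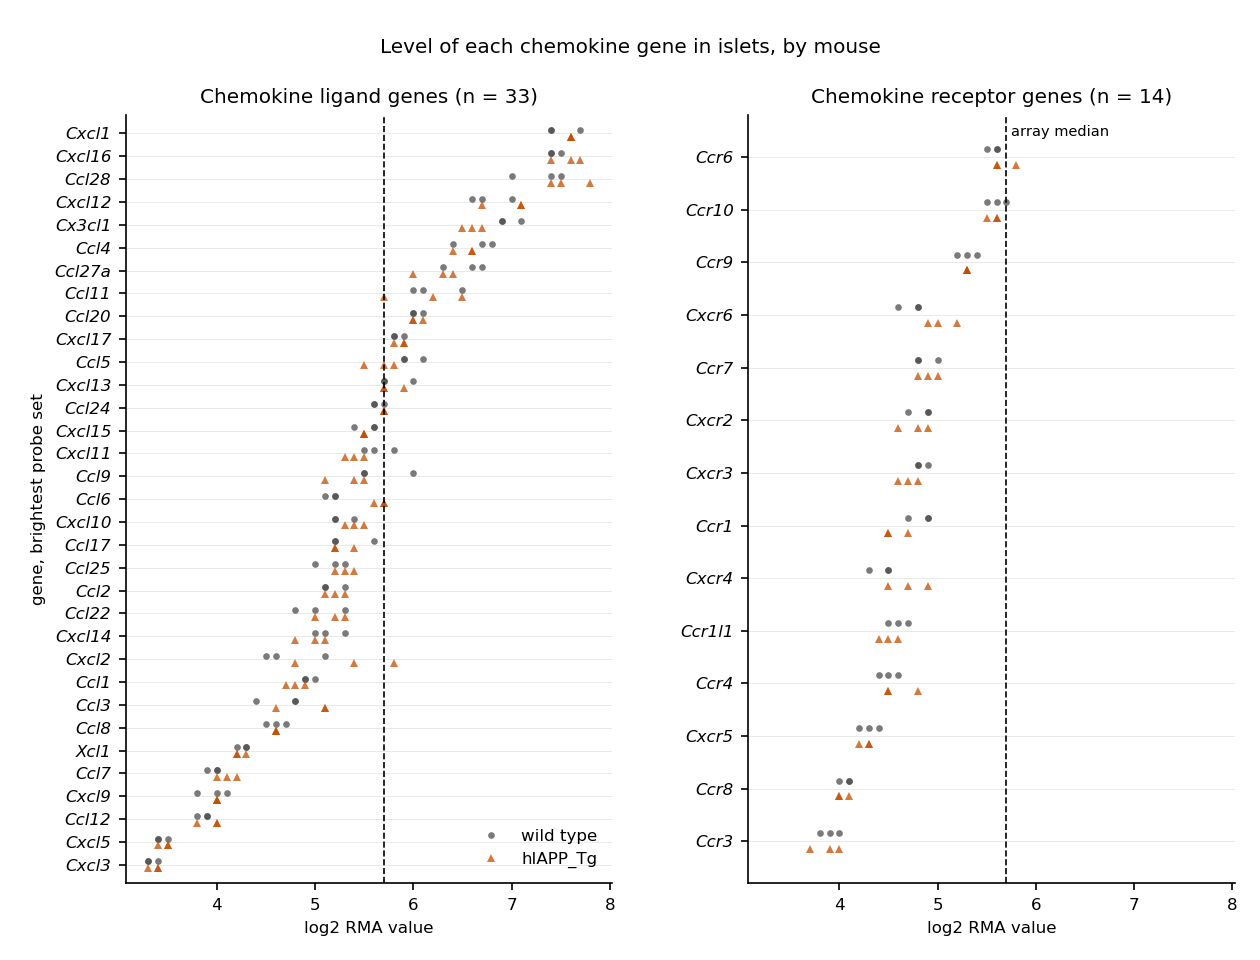
Each row is 1 chemokine gene (brightest probe set), ligands on the left and receptors on the right, with the log2 RMA value on the horizontal axis. Circles are the 3 wild-type and triangles the 3 hIAPP_Tg mice, and the dashed line is the array median of 5.7. A total of 9 ligands and 0 receptors lie to its right on all 6 arrays, and for most genes circles and triangles overlap.

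Among the ligands above the median, Cxcl16 had 2 probe sets that did not move alike. CXCL16 is made as a transmembrane protein that binds oxidised lipoproteins as well as its receptor CXCR6. The dimmer probe set is of the _s_at type, whose probes can match several transcripts. It stood at 5.9, 5.9 and 5.9 in wild-type mice against 6.3, 6.3 and 6.5 in hIAPP_Tg mice. All 3 hIAPP_Tg values lay above the wild-type ones, and the difference was 0.47 (SE 0.073, 95% interval 0.29 to 0.64, limma adjusted p = 0.269). The brighter probe set overlapped between the genotypes, at 7.5, 7.4 and 7.4 against 7.6, 7.4 and 7.7, a difference of 0.13 (95% interval -0.086 to 0.35). With both averaged the difference was 0.30 (limma adjusted p = 0.498).

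Cxcr6, which encodes the receptor of CXCL16 on T cell subsets and natural killer T cells, was dim on both of its probe sets. The brighter one read 4.6, 4.8 and 4.8 in wild-type mice against 5.0, 4.9 and 5.2 in hIAPP_Tg mice. The genotypes were apart by a single step of the scale, and the difference was 0.30 (SE 0.10, limma adjusted p = 0.557). The other probe set, at 3.5 to 3.6 on all arrays, differed by -0.033. These levels are below the array median and not known to be above background. The mean over 11 T and NK cell markers was 4.82 to 4.86 in wild-type mice against 4.80 to 4.86 in hIAPP_Tg mice.

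Cx3cl1 encodes fractalkine, a membrane-anchored chemokine of endothelium, neurons and islet cells that binds monocytes and macrophages. Its brightest probe set read 6.9, 6.9 and 7.1 in wild-type mice against 6.5, 6.6 and 6.7 in hIAPP_Tg mice. Every hIAPP_Tg value lay below every wild-type value, and the difference was -0.37 (SE 0.086, 95% interval -0.58 to -0.16, limma adjusted p = 0.471). The second probe set above the median gave 6.3, 6.1 and 6.4 against 6.2, 6.1 and 6.2, a difference of -0.10 with overlap. The remaining pair, below the median, differed by -0.033 and -0.10, so all 4 probe sets had a lower mean in hIAPP_Tg islets. The mean over 8 endothelial markers was 7.84 to 7.93 in wild-type mice against 7.73 to 7.81 in hIAPP_Tg mice, also without overlap. Of these markers 4 were lower, 1 was higher and 3 did not differ. The mean over 5 alpha, delta and PP cell markers was 11.76 to 11.80 against 11.60 to 11.68, again without overlap, while the beta-cell marker means overlapped. The part of any of these cells in the Cx3cl1 value was not tested.

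Cxcl12, the stromal chemokine that holds stem cells and lymphocytes in place, was measured by probe sets with opposite signs. One read 7.0, 6.7 and 6.6 in wild-type mice against 6.7, 7.1 and 7.1 in hIAPP_Tg mice, a difference of 0.20 (95% interval -0.17 to 0.57). Another read 7.4, 6.7 and 6.7 against 6.3, 6.7 and 6.7, a difference of -0.37 (95% interval -0.90 to 0.17). The third lay below the median and differed by 0. The high value of the second on wild_type replicate 1 coincided with a mean over 8 stellate and fibroblast markers of 8.60 on that array, against 7.81 to 8.01 on the other 5. Cxcr4, which encodes the receptor of CXCL12, was below the median, at 4.3, 4.5 and 4.5 against 4.7, 4.5 and 4.9. The difference was 0.27 (95% interval -0.018 to 0.55, limma adjusted p = 0.632), and the genotypes met at 4.5. Ackr3, the scavenging receptor of the same ligand and no member of the family as defined, was higher by 0.27 (7.20 ± 0.10 to 7.47 ± 0.058, SD, n = 3 each, limma adjusted p = 0.503).

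The mucosal and epithelial ligands among those above the array median did not separate the genotypes. Ccl28, a chemokine of exocrine epithelia, read 7.0, 7.5 and 7.4 in wild-type mice against 7.5, 7.8 and 7.4 in hIAPP_Tg mice (difference 0.27, 95% interval -0.13 to 0.66), and its other 2 probe sets, below the median, differed by 0.067 and 0. Ccl27a, a chemokine of skin and other epithelia, read by a probe set (_x_at) that near-identical copies such as Ccl27b may share, was at 6.6, 6.7 and 6.3 against 6.3, 6.0 and 6.4 (difference -0.30, 95% interval -0.65 to 0.050). Ccl20, which attracts cells that carry CCR6 and is induced in stressed epithelium and islets, stayed between 6.0 and 6.1 on all 6 arrays (95% interval of the difference -0.15 to 0.15). Cxcl17, a mucosal chemokine, stayed between 5.8 and 5.9. Ccr10, whose product binds CCL27 and CCL28, and Ccr6 lay around the median. Ccr10 ran from 5.5 to 5.7 and Ccr6 from 5.5 to 5.8.

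Among the CC ligands of macrophages and T cells, the 2 with an unadjusted p under 0.05, Ccl6 and Ccl5, differed with opposite signs. Ccl6, a CC chemokine of myeloid cells that binds CCR1, read 5.2, 5.2 and 5.1 in wild-type mice against 5.7, 5.7 and 5.6 in hIAPP_Tg mice. No values overlapped, and the difference of 0.50, or 1.41-fold (SE 0.063, 95% interval 0.35 to 0.65), had the smallest adjusted p of the family at 0.15 (limma). Leaving out each array in turn, the difference stayed between 0.47 and 0.53. The dimmer Ccl6 probe set differed by 0.23 with overlap, and both averaged by 0.37 (limma adjusted p = 0.404). The macrophage marker means given above did not overlap between the genotypes either, and their part in the Ccl6 value was not tested.

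Ccl5 (RANTES), made by T cells, platelets and macrophages, pointed the other way. It was at 5.9, 5.9 and 6.1 in wild-type mice against 5.8, 5.5 and 5.7 in hIAPP_Tg mice, apart by a single step, with a difference of -0.30 (SE 0.10, limma adjusted p = 0.557). With the acinar mean added to the fit as a covariate, a setting chosen after seeing the data, it was -0.19. Ccl9, which lies next to Ccl5 and Ccl6 on chromosome 11, read 6.0, 5.5 and 5.5 against 5.5, 5.1 and 5.4 on its brighter probe set, a difference of -0.33 with overlap. Ccl4 (MIP-1 beta), in the same cluster, overlapped at 6.8, 6.4 and 6.7 against 6.6, 6.4 and 6.6 (difference -0.10, 95% interval -0.39 to 0.19). The neighbours Ccl6 and Ccl9 had differences of opposite sign on their brighter probe sets, but the dimmer Ccl9 probe set differed by 0.033.

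Ccr1, which encodes a receptor of CCL3, CCL5 and CCL6 on monocytes and macrophages, was not higher in hIAPP_Tg islets. Its brighter probe set read 4.9, 4.9 and 4.7 in wild-type mice against 4.5, 4.5 and 4.7 in hIAPP_Tg mice, meeting at 4.7, with a difference of -0.27 (SE 0.090, limma adjusted p = 0.557). The other differed by -0.13, and both lay below the array median. Ccl2, the main monocyte attractant (MCP-1), gave 5.3, 5.1 and 5.1 against 5.2, 5.1 and 5.3, a difference of 0.033 with a 95% interval of -0.18 to 0.24. The neighbours of Ccl2 on chromosome 11, Ccl7, Ccl11, Ccl12, Ccl8 and Ccl1, differed by -0.13 to 0.13.

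**Figure D2:**
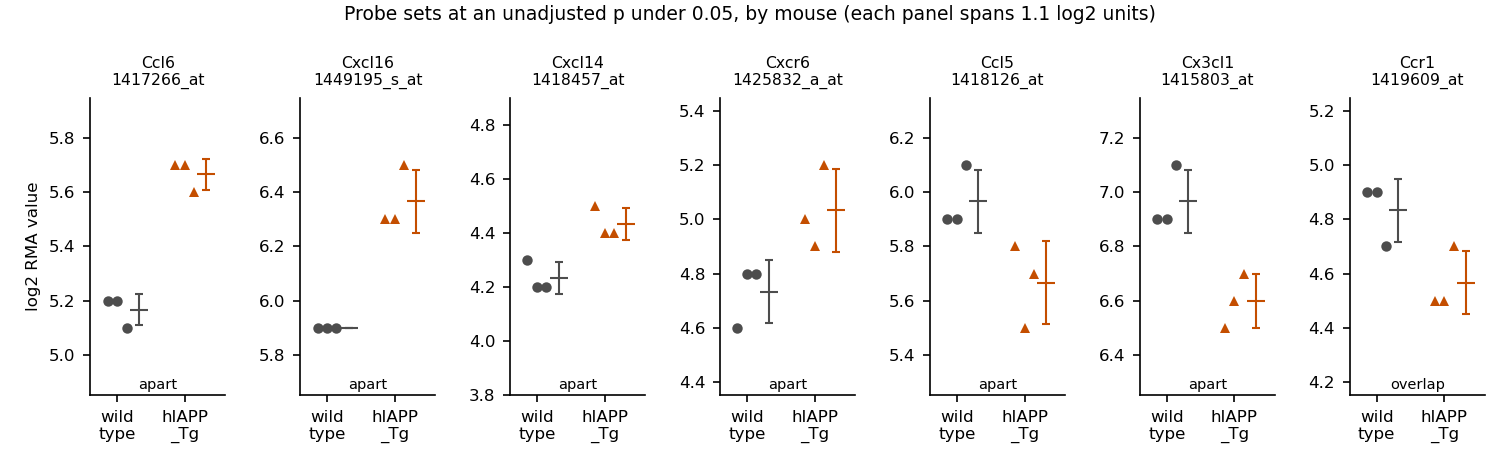
Each panel shows 1 of the 7 probe sets at an unadjusted p under 0.05, with the log2 RMA value of each mouse (circles wild type, triangles hIAPP_Tg) and the mean ± SD of 3 mice beside them. All panels span the same height. The genotypes are apart in 6 panels and meet at 4.7 for Ccr1, and none of the 7 passed the adjusted threshold.

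Among the neutrophil-attracting chemokines, Cxcl2 and 1 of 3 Cxcl1 probe sets varied from mouse to mouse, while Cxcl5 stayed at 3.4 to 3.5 and Cxcl3 at 3.3 to 3.4. CXCL1 and CXCL2 act on the receptor CXCR2, and their genes lie next to each other on chromosome 5, with Cxcl15 and Cxcl3 on the side of Cxcl1. Cxcl2 read 5.1, 4.6 and 4.5 in wild-type mice against 4.8, 5.8 and 5.4 in hIAPP_Tg mice. Its difference of 0.60 was the largest of the 71 probe sets in size, but its SE was 0.28 (95% interval -0.077 to 1.28, limma adjusted p = 0.632) and the genotypes overlapped.

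One Cxcl1 probe set followed the same order closely, at 5.0, 5.0 and 4.6 against 4.8, 5.6 and 5.2 (difference 0.33, 95% interval -0.20 to 0.86). So did Ccl3 (MIP-1 alpha), on another chromosome, at 4.8, 4.8 and 4.4 against 4.6, 5.1 and 5.1 (difference 0.27, 95% interval -0.16 to 0.70). In each genotype the array with the lowest Cxcl2 value, wild_type replicate 3 and hIAPP_Tg replicate 4, was also lowest for these others. The 2 brighter Cxcl1 probe sets, of types (_s_at and _x_at) whose probes can match more than 1 transcript, did not follow: they stayed at 7.4 to 7.7 and 7.2 to 7.4 and differed by 0.10 and 0.

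Markers of other cells were set beside this pattern. Within each genotype, the array with the lowest mean over the acinar markers had the highest Cxcl2 value, and the array with the highest acinar mean the lowest. These means were 11.6, 13.0 and 13.4 in wild-type mice against 12.8, 10.2 and 11.7 in hIAPP_Tg mice. With them as a covariate, a setting chosen after seeing the data, the difference of Cxcl2 was 0.21 and that of Ccl3 0.081. The probe sets at an unadjusted p under 0.05 were read with the same covariate. The smallest adjusted p of the family was then 0.521 (limma). Ccl6 was at 0.48, the dimmer Cxcl16 probe set at 0.47, Cx3cl1 at -0.36 and Cxcl14 at 0.20. Ccr1 was at -0.29, Cxcr6 at 0.38 and Ccl5 at -0.19. Without hIAPP_Tg replicate 5 the difference of Cxcl2 was 0.37. The calgranulin genes S100a8 and S100a9, abundant in neutrophils, were at 6.3 and 6.1 on hIAPP_Tg replicate 5 and at 4.3 to 4.6 on the other 5 arrays. The neutrophil granule genes Camp, Ltf, Mpo and Elane did not have their highest value on that array, and Csf3r, the neutrophil growth factor receptor gene, was at 5.5 there against 5.1 to 5.4 elsewhere. The part of acinar cells or neutrophils in the values of Cxcl2 or the other chemokines was not tested.

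The promoters of Cxcl1, Cxcl2 and nearby Cxcl3 were picked after Cxcl2 and 1 probe set of Cxcl1 were seen to vary in a like order. Each line gives the 100 bases just before the annotated start on the + strand (RefSeq, GRCm38.p6), with a match to GGAATTTCC, part of the binding motif of NF-kappaB, in capitals.

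Cxcl1 (chr5:90891145-90891244): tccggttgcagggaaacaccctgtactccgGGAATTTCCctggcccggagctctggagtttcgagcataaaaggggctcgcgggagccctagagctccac

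Cxcl2 (chr5:90903799-90903898): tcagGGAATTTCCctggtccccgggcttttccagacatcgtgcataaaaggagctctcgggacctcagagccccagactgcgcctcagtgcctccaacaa

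Cxcl3 (chr5:90786001-90786100): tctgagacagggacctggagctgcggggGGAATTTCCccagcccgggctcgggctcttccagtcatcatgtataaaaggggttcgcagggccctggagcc

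The match begins 70, 96 and 72 bases before the start. Searched on both strands over windows of 250 bases before to 50 after the start, it was in 5 of the 34 members with a promoter in the table (Cxcl1, Cxcl2, Cxcl3, Cxcl10 and Ccr3). Counted by promoter, 5 of 38 member promoters held it, and 0.317% of all 32851. Cxcl3 stayed at 3.3 to 3.4 on all arrays, near the lowest value of the table (2.9), so its values cannot show a pattern over the arrays. The part of NF-kappaB in the values of these genes was not tested.

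**Figure D3:**
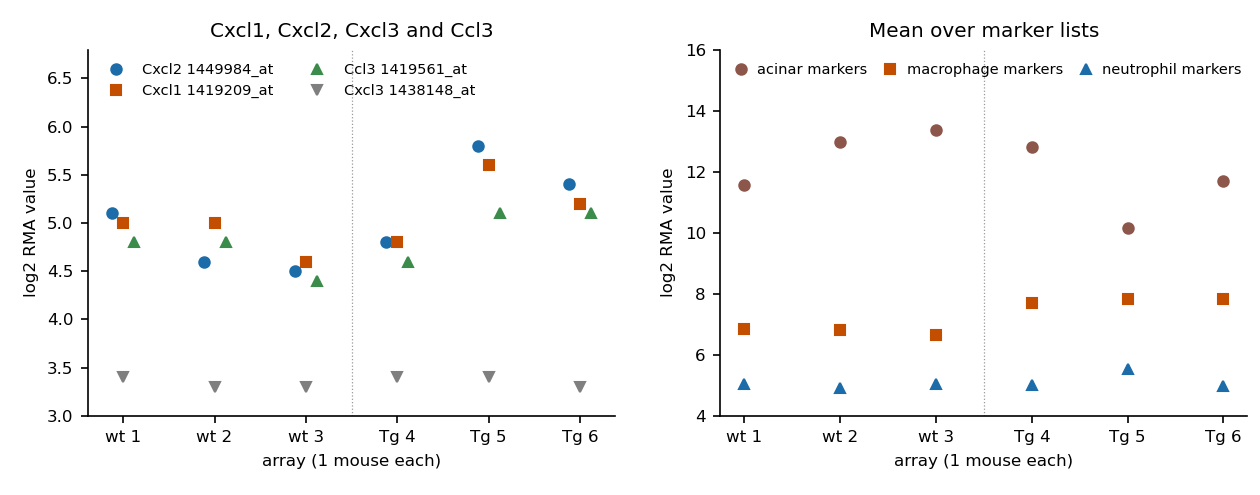
Left, log2 RMA values of Cxcl2, 1 probe set of Cxcl1, Ccl3 and Cxcl3 on each array (1 mouse each). Right, mean log2 RMA value over the acinar (6), macrophage (16) and neutrophil (7) markers on the same arrays. Cxcl2 is highest (5.8) on hIAPP_Tg replicate 5, where the acinar mean is lowest (10.2), while macrophage means are higher on all 3 hIAPP_Tg arrays and Cxcl3 stays at 3.3 to 3.4.

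None of the interferon-induced ligands, nor their receptor, was above the array median on all arrays. CXCL9, CXCL10 and CXCL11 bring in T cells through CXCR3. Cxcl10 read 5.2, 5.4 and 5.2 in wild-type mice against 5.4, 5.3 and 5.5 in hIAPP_Tg mice (difference 0.13, 95% interval -0.076 to 0.34). The 2 Cxcl9 probe sets stayed between 3.7 and 4.1, and Cxcr3 between 4.6 and 4.9. Cxcl11 read 5.5, 5.8 and 5.6 against 5.3, 5.4 and 5.5 on its brighter probe set, around the array median. It differed by -0.23, with overlap, and RefSeq lists it as a transcribed pseudogene in this assembly.

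Cxcl14, a chemokine of epithelia and stroma, again had probe sets with opposite signs. The dimmer read 4.3, 4.2 and 4.2 in wild-type mice against 4.5, 4.4 and 4.4 in hIAPP_Tg mice, apart by 1 step (difference 0.20, SE 0.063, limma adjusted p = 0.552). The brighter differed by -0.17 (95% interval -0.44 to 0.10), and with both averaged the difference was 0.017. Both lay below the median.

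The homing receptors of lymphocytes and dendritic cells lay below or around the array median. Ccr7, which guides dendritic cells and T cells to lymph nodes, stood at 4.8, 5.0 and 4.8 in wild-type mice against 5.0, 4.9 and 4.8 in hIAPP_Tg mice (95% interval of the difference -0.18 to 0.24). The 10 receptors outside the naming rule (Ccr3, Ccr4, Ccr6, Ccr8, Ccr9, Ccr10, Ccr1l1, Cxcr2, Cxcr3 and Cxcr5, 14 probe sets) had wild-type means of 3.6 to 5.6 and differences of -0.17 to 0.10. Ccr9, the gut-homing receptor of CCL25, had 5 probe sets, all between 3.5 and 5.4. The B-cell follicle receptor Cxcr5 stayed at 4.2 to 4.4 and its ligand Cxcl13 at 5.7 to 6.0 on the brighter probe set.

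The ligands outside the naming rule (16 genes and 21 probe sets, including the neighbours mentioned above) had wild-type means of 3.33 to 6.2 and differences of -0.33 to 0.13. They include the eosinophil attractants Ccl11 and Ccl24, the dendritic-cell chemokines Ccl17 and Ccl22, thymic Ccl25, neutrophil-attracting Cxcl5 and lymphotactin Xcl1. None of them, and none of the 10 receptors, had an unadjusted p under 0.05. Ccl11 was the brightest of these, at 6.5, 6.1 and 6.0 against 6.2, 6.5 and 5.7, with overlap.

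Counted over the family, the differences went both ways. Of the 71 probe sets, 35 had a difference above 0, 29 below 0 and 7 of 0, with a median of 0, and the median over all probe sets was also 0. At an unadjusted p under 0.05, 4 probe sets were higher (5.63%, against a background of 3.82%) and 3 lower (4.23%, against 3.51%). The genotypes did not overlap for 4 higher (background 3.44%) and 2 lower probe sets (background 3.22%). By the brightest probe set of each gene, 2 of 47 genes were higher and 3 lower at this p, with backgrounds of 5.02% and 3.46%. With so few members, 1 probe set moves a share by over 1 percentage point. A difference of 0.3 or more in size was seen for 10 of the 71 (14.1%), against 5.11% of all probe sets. Those of Ccl5, Ccl27a and Cxcr6 lay exactly at this cut. The genotypes overlapped for those of Ccl9, Ccl27a, Cxcl1, Cxcl2 and Cxcl12.

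**Figure D4:**
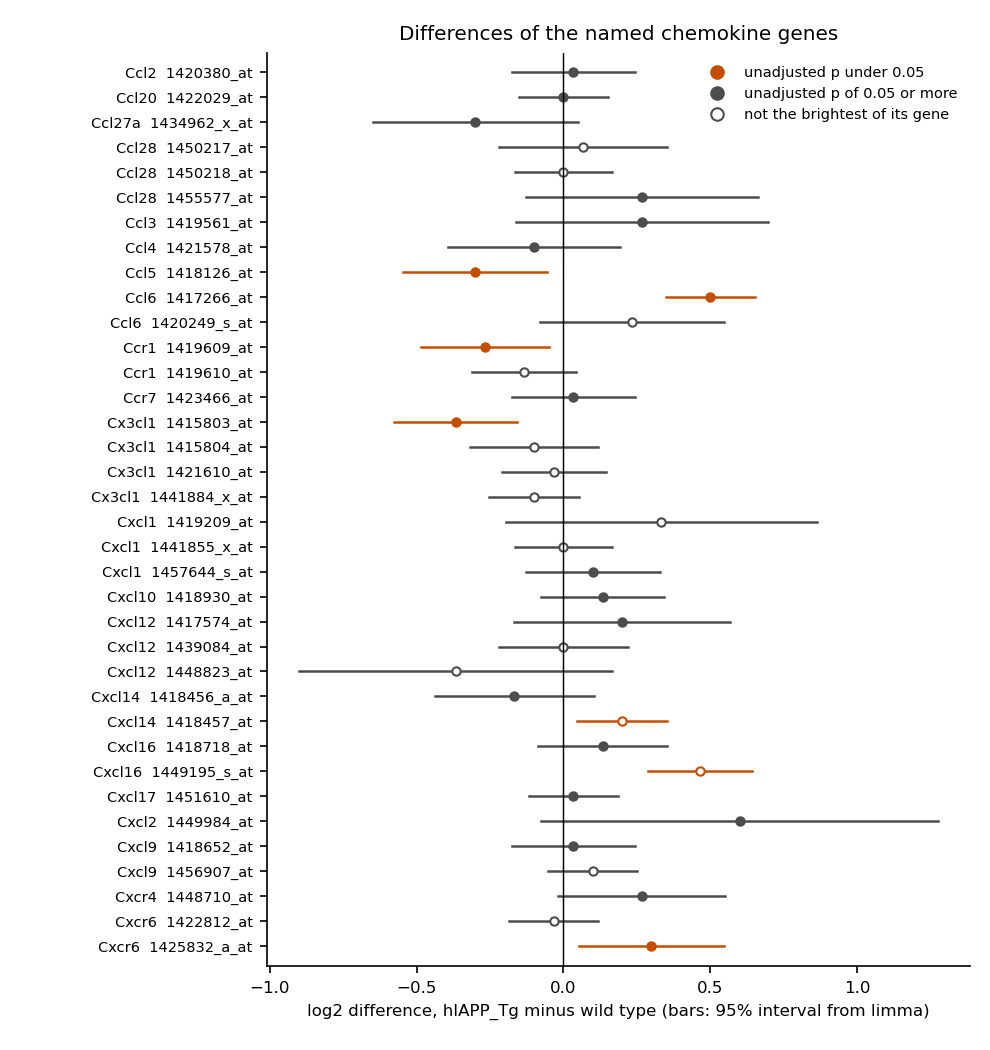
Log2 difference (hIAPP_Tg minus wild type) with its 95% interval from limma for every probe set of the 21 named chemokine genes. Filled points are the brightest probe set of a gene and open points the others, with an unadjusted p under 0.05 in orange. The intervals of 7 probe sets, 4 above and 3 below 0, leave out 0, and probe sets of Cxcl12 and of Cxcl14 point in opposite directions.

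Genes around the family were counted from lists fixed for this comparison, by the brightest probe set of each gene. Of all 18193 genes, 5.02% were higher and 3.46% lower at an unadjusted p under 0.05. Of 6 other chemokine receptors (the atypical Ackr genes, Ccrl2 and Xcr1), 1 was higher and 1 lower at an unadjusted p under 0.05: Ackr3 as given above, and Ackr2, a decoy receptor for inflammatory CC chemokines, at 5.77 ± 0.058 in wild-type and 5.50 ± 0.10 in hIAPP_Tg islets (SD, n = 3 each). Ccrl2, which presents the attractant chemerin, was above the median on all arrays and overlapped, at 7.4, 7.1 and 7.1 against 7.3, 7.5 and 7.4. Of 17 genes of chemokine processing and presentation 2 were higher and 2 lower, with a median difference of 0. The higher ones were the protease gene Ctsc (0.77, limma adjusted p = 0.391) and Mif, a cytokine that also binds chemokine receptors (0.33), and the lower ones the proteoglycan genes Sdc2 (-0.27) and Vcan (-0.20).

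Signalling downstream of the receptors had 4 of 42 measured genes higher and 0 lower at this p, with a median difference of 0.050. The background is 5.02% higher and 3.46% lower. The largest was in Rgs1, a regulator of G protein signalling that dampens chemokine receptors in leukocytes, at 7.2, 6.8 and 6.1 in wild-type mice against 8.2, 8.7 and 8.3 in hIAPP_Tg mice (difference 1.70, SE 0.29, limma adjusted p = 0.291). The genotypes did not overlap. Pik3r5, a subunit of the leukocyte phosphoinositide 3-kinase, was higher by 0.30 (limma adjusted p = 0.419). Of 37 inducers and feedback genes of NF-kappaB and interferon signalling, 2 were higher and 1 lower, with a median difference of 0.033, counts near the same background. The higher ones were the microbial sensor gene Tlr2 (0.43) and the feedback inhibitor gene Socs3 (0.57). The lower one was Il1r1, the interleukin-1 receptor gene, at 11.6, 11.6 and 11.7 against 10.8, 11.3 and 11.0 (difference -0.60, limma adjusted p = 0.431). None of the genes on these 4 lists passed the limma threshold.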

How the data were processed

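The authors deposited log2 expression values of 45101 probe sets, made with RMA (background correction, quantile normalization, probe set summary). RMA and affy are the tools listed in the submitters' processing notes, with no version. The labels' protocols start from 150 ng of total RNA. Arrays have no read depth, and their number limits precision. RMA compresses differences near the floor.

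The 64 control probe sets were left out. The other 45037 were fitted with limma 3.58.1 in R 4.3.3 (lmFit, eBayes, two-sided, no covariate, Benjamini-Hochberg over all). Genotype and replicate came from the sample titles. Gene names came from the platform annotation, and all 47 were found in the RefSeq table (GRCm38.p6). Of the 15 genes always to be named, 14 were measured. Also named were genes with an unadjusted p under 0.05 or above the array median on all arrays, and up to 2 genes per direction of each pathway list. Values of other genes were chosen after they were seen. The lists, like the members, were chosen with earlier results of these data known. The fit was tested on simulated data. Figures were drawn with matplotlib 3.10.9.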

Additional observations from a re-analysis of the deposited data

How the results depend on the processing

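No chemokine probe set passed the limma threshold under any of the 13 alternatives, among them leaving out each of the 6 arrays. Over all probe sets the count of 13 became 30 with quantile normalization, 26 with array quality weights, 3 with the acinar marker mean as a covariate (added after seeing the data) and 1 to 4 without single arrays. The 7 chemokine probe sets at an unadjusted p under 0.05 became 3 with dim probe sets left out, where 16 of 71 were tested, and 5 to 12 without single arrays. The 6 without overlap became 3 with that filter and 9 to 16 without single arrays, where fewer values have to be apart. The cause of the other changes was not tested. Without single arrays Ccl6, Cxcl16, Cx3cl1 and Cxcl14 kept an unadjusted p under 0.05 in 6 of 6 cases, Ccl5 and Cxcr6 in 3 and Ccr1 in 2. With probe sets averaged, Cxcl12 turned to -0.056 and Cxcl14 to 0.017, since their probe sets have opposite signs. Without single arrays the differences ran from -0.050 to 0.10 for Cxcl9, from -0.017 to 0.10 for Ccr7 and for Ccl2. The genes above the array median numbered 7 to 10, and the median difference ran from -0.017 to 0.020. No paired analysis was possible because the genotypes share no replicate numbers.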
